A study of Mus musculus with 9 samples.

Results

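The 33 genes described here are genes of the type I interferon response, chosen by gene symbol from the table of hippocampal RNA-seq values. All 33 had a row and values in the table, which held 22173 genes, 18798 of them with values. The tissue came from C57BL/6 mice, female by the study's methods, and no group carried a transgene or a deleted gene. Middle-aged quercetin mice (10 months) had received quercetin, a plant flavonol, into the tail vein, for 24 days by the sample labels, while the study's text gives a longer course for its behaviour experiment. Middle-aged control mice (10 months) and young control mice (8 weeks) had received the solvent, PBS with 10% DMSO, which by the methods was also the solvent of the quercetin. Each group had 3 libraries, 9 in all, and nothing in the sources used here says that each library came from a separate mouse, so every p-value below measures the spread between these libraries, which may be technical. The question asked of the 33 genes was how their levels differed between the 3 groups and between the libraries of a group.

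Type I interferons (interferon alpha and beta) are secreted when sensor proteins meet viral or misplaced nucleic acid. They bind a receptor of the subunits IFNAR1 and IFNAR2, whose kinases JAK1 and TYK2 phosphorylate signal transducers that include STAT2. STAT2 and IRF9 are subunits of the factor ISGF3, which binds the interferon-stimulated response element in the promoters of interferon-stimulated genes, and their products block viral entry, translation and budding or feed back on the pathway. In brain, microglia, astrocytes, endothelial cells and neurons can all respond to interferon, and a low level of these transcripts is present without infection. The tissue here was bulk hippocampus, so more cells of a responding type and more RNA per cell cannot be told apart.

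The response element is visible in the promoters of many of the genes themselves, and the stretches below show it. The 33 genes were chosen as genes of the interferon response, so a high share with the element may follow from that choice. The shares below are therefore a description of sequence only. Promoter windows of 300 bases (250 before and 50 after the start, RefSeq, build GRCm38.p6) were at hand for 24 of the 33 genes. The motif searched, the core of the response element, was GAAA, any 2 bases, then GAAA again, on either strand (on the other strand TTTC, any 2 bases, TTTC), and matches may overlap. A gene was counted when any of its windows held the motif. This was so for 14 of the 24 genes (58.3%), against 1079 of all 27025 genes with a window (3.99%). Of the genes with a window and FPKM values, it was so for 562 of 14683 (3.83%). Of 61 other interferon-stimulated genes with a window, 32 (52.5%) held it. The stretches are printed 5′ to 3′ in the direction of the gene, with the matches in capitals and up to 15 bases on either side. Isg15 lies on the minus strand of chromosome 4 (chr4:156200860-156200911), with 3 overlapping matches 78 to 66 bases before the start. Bst2 lies on the minus strand of chromosome 8 (chr8:71537572-71537617), with 2 matches that overlap. Ifit1 (chr19:34640770-34640828), Ifit3 (chr19:34583358-34583431) and Ifit3b (chr19:34607754-34607827) are neighbours on the plus strand of chromosome 19, each with 2 matches. The windows of Ifit3 and Ifit3b belong to a start further inside the gene. Their stretches lie after the outermost gene starts, chr19:34583119 for Ifit3 and chr19:34607530 for Ifit3b. Gbp2 (chr3:142620589-142620628) and Gbp3 (chr3:142559984-142560029) are neighbours on the plus strand of chromosome 3, and Stat2 (chr10:128270261-128270300) is on the plus strand of chromosome 10.
Isg15: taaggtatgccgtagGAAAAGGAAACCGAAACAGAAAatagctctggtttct
Bst2: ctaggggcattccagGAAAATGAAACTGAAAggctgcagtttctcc
Ifit1: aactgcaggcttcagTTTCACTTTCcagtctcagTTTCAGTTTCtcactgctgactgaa
Ifit3: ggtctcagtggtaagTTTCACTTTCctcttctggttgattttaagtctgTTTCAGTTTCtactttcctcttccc
Ifit3b: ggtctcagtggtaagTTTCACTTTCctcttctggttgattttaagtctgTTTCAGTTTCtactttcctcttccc
Gbp2: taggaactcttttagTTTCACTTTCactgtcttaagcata
Gbp3: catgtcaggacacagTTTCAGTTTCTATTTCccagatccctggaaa
Stat2: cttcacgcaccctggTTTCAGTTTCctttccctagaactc

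The stretches of Ifit3 and Ifit3b are the same letter for letter. The match was also present for Gbp7, Oas1a, Trim30a, Rsad2, Ifih1 and Ifitm3. These exact letters were not in the windows of Irf7, Irf9, Ifit2, Oasl2, Cmpk2, Dtx3l, Ifi44, Xaf1, Lgals3bp and Ifi35. The windows of Dhx58, Zbp1, Oas2, Usp18, Parp9, Parp14, Ifi27, Ifi27l2a and Rtp4 were not analysed here.

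Levels are given in FPKM, fragments scaled to the length of the transcript and to the mapped total of the library, so that levels of different genes can be set side by side. Steps of 1 fragment in low genes gave an estimated 16200000 to 17100000 fragments per library, an estimate that rests on annotated transcript lengths. At that depth the lowest and highest libraries held an estimated 16.2 and 51.7 fragments of Isg15, 44.0 and 199 of Irf7, and 462 and 851 of Ifi27, whose values are thus the better measured. Transcripts of the choroid plexus, a neighbouring tissue, stood out in middle-aged quercetin 2 and young control 3. Ttr, which encodes transthyretin, had 930.4 FPKM in middle-aged quercetin 2 and 2390.4 FPKM in young control 3, against 1.08 to 28.3 FPKM in the other 7 libraries. Markers of hippocampal neurons summed to between 628 and 746 FPKM in the 9 libraries.

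The other 32 genes were low in abundance compared with Ifi27. Ifi27, which encodes a small mitochondrial membrane protein, had 34.2, 52.0 and 41.8 FPKM in the middle-aged quercetin libraries, against 28.7, 34.2 and 32.9 FPKM in the middle-aged controls and 28.3, 39.6 and 32.9 FPKM in the young controls (values of a group stand in the order of its replicate numbers throughout). No other of the 33 exceeded 15.0 FPKM in any library. The lowest was Zbp1, a sensor of left-handed nucleic acid, with 0.27, 0.72 and 0.54 FPKM in the quercetin libraries, 0.00, 0.15 and 0.37 FPKM in the middle-aged controls and 0.07, 0.52 and 0.15 FPKM in the young controls. The tests took only genes that reached 1 FPKM or more in 3 or more of the libraries, which 26 of the 33 did. Dhx58, Zbp1, Oas1a, Oas2, Rsad2, Parp14 and Ifi44 did not. Trim30a, Usp18 and Ifih1 reached 1 FPKM only in quercetin libraries and young control 2, so the filter partly fixed their place in the counts and scores below.

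The leading feature of the 33 genes was that they moved together between libraries, and that this did not follow the groups alone. Middle-aged quercetin 2, middle-aged quercetin 3 and young control 2 were the 3 highest of the 9 libraries for 25 of the 33 genes and for 21 of the 26 tested, against 323 of 13062 genes tested (2.47%). The highest library was 1 of these 3 for all 33 genes, against 38.0% of the genes tested. These libraries were singled out after their values were seen, so the counts are a description. The exceptions to the first count were Dhx58, Oas1a, Usp18, Rsad2, Cmpk2, Bst2, Dtx3l and Trim30a. Within the quercetin group, replicate 1 was the lowest for 28 of 33 genes (36.7% of genes tested). Within the young group, replicate 2 was the highest for 31 of 33 (40.2% of genes tested), with Dhx58 and Oas1a as the exceptions.

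**Figure D1:**
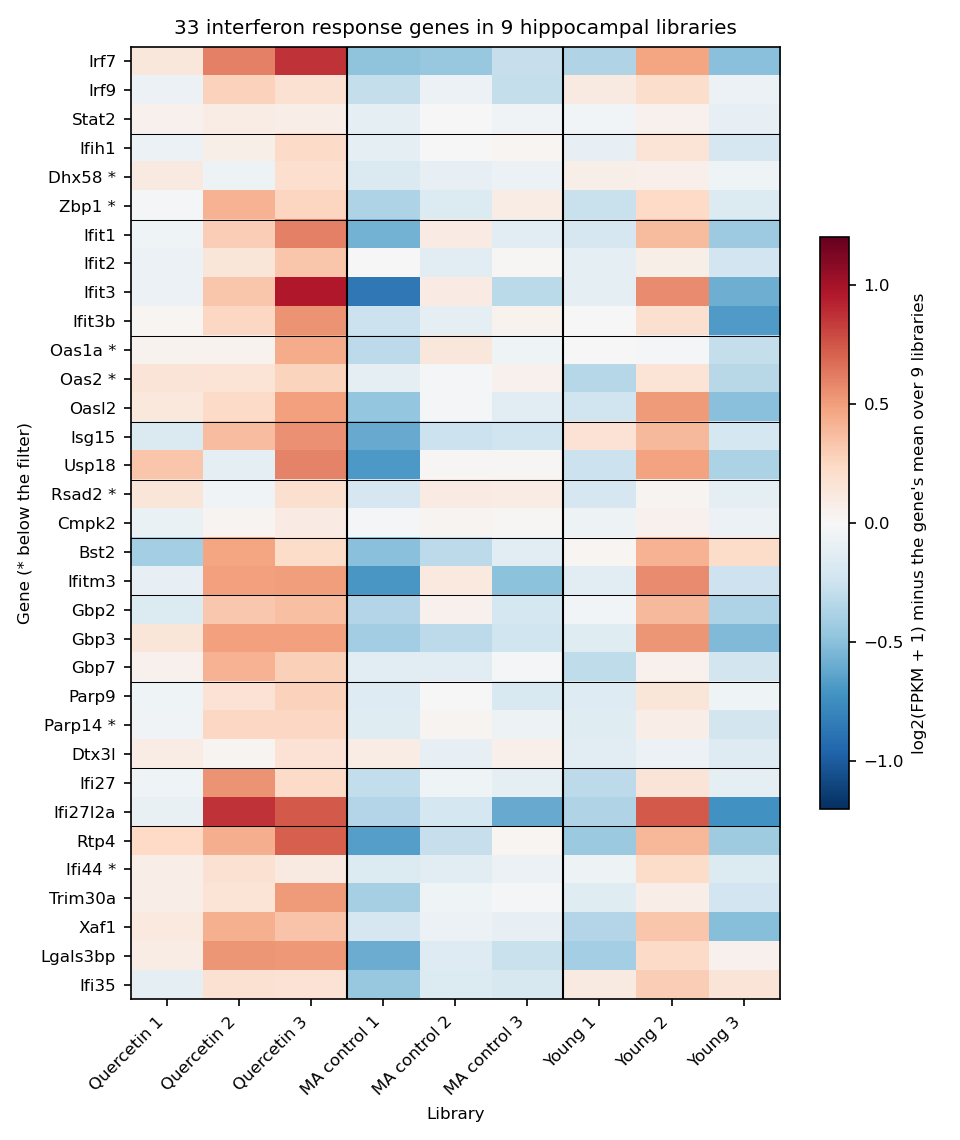
Each row is 1 of the 33 genes, grouped by role, and each column 1 of the 9 libraries (Quercetin, middle-aged quercetin; MA control, middle-aged control; Young, young control, with the replicate number). Colour gives log2(FPKM + 1) minus the gene's mean over the 9 libraries, and stars mark the 7 genes below the filter on low values. The columns Quercetin 2, Quercetin 3 and Young 2 are mostly above 0, while MA control 1 and Young 3 are mostly below.

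The same order appeared in the mean over the 26 tested genes of log2(FPKM + 1) minus each gene's own mean over the 9 libraries, called the score here. It was -0.003, 0.31 and 0.43 in the quercetin libraries, -0.37, -0.09 and -0.15 in the middle-aged controls, and -0.15, 0.30 and -0.27 in the young controls. The score of young control 2 therefore lay beside that of quercetin 2 and above that of quercetin 1, while the other young libraries lay among the middle-aged controls. The mean over all 13062 genes tested lay between -0.0158 and 0.0213 in every library. Summed over the 33 genes, the quercetin libraries held 118, 165 and 165 FPKM, against 88.5, 114 and 106 FPKM in the middle-aged controls and 103, 151 and 101 FPKM in the young controls. All 26 tested genes stood above their own mean in quercetin 3, 25 in quercetin 2 and 25 in young control 2, but 12 in quercetin 1 and 2 in middle-aged control 1.

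The transcription factors of the pathway showed the pattern at 3 different sizes. Irf7 (chr7:141263183-141266499), the factor that amplifies interferon alpha production, had 1.81, 2.88 and 3.67 FPKM in the quercetin libraries, 0.83, 0.87 and 1.11 FPKM in the middle-aged controls, and 0.99, 2.56 and 0.81 FPKM in the young controls. All quercetin libraries thus lay above all middle-aged controls, and young control 2 lay above quercetin 1. Irf9, the DNA-binding subunit of ISGF3, had 6.60, 8.71 and 8.05 FPKM in the quercetin libraries, 5.55, 6.63 and 5.54 FPKM in the middle-aged controls, and 7.63, 8.26 and 6.61 FPKM in the young controls. For Irf9 it was the middle-aged controls that were low, with 1 of them just above quercetin 1. Stat2, the other ISGF3 subunit among the 33, differed little, with 8.43 ± 0.125 FPKM in the quercetin libraries, 7.66 ± 0.364 FPKM in the middle-aged controls and 7.80 ± 0.472 FPKM in the young controls (SD, n = 3 each).

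The Ifit genes, whose products bind viral RNA and hold back its translation, sit together on chromosome 19. Ifit3 (chr19:34583119-34588982) had the largest range of log2(FPKM + 1) of the 33 genes, with 4.89, 6.79 and 11.04 FPKM in the quercetin libraries, 2.41, 5.64 and 3.93 FPKM in the middle-aged controls and 4.71, 8.17 and 3.11 FPKM in the young controls. Quercetin 1 was below middle-aged control 2, so the groups overlapped. Ifit3b had 2.86, 3.53 and 4.54 FPKM in the quercetin libraries, 2.18, 2.51 and 2.91 FPKM in the middle-aged controls, and 2.82, 3.35 and 1.37 FPKM in the young controls. Of the 50-base windows of the Ifit3 transcript, 51.2% occur identically in Ifit3b, so how reads were split between the pair is uncertain. Ifit1 had 1.16, 1.75 and 2.41 FPKM in the quercetin libraries, 0.51, 1.39 and 1.05 FPKM in the middle-aged controls, and 0.95, 1.90 and 0.65 FPKM in the young controls. Ifit2, whose transcript shared no such window with another gene, ran only from 2.58 to 4.26 FPKM over the 9 libraries, and its 3 highest libraries were again quercetin 3, quercetin 2 and young control 2.

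Among the oligoadenylate synthetases, which activate RNase L or, as for Oasl2, assist RNA sensing, Oasl2 had the highest level. Oasl2 had 2.17, 2.39 and 3.07 FPKM in the quercetin libraries, 1.10, 1.86 and 1.65 FPKM in the middle-aged controls, and 1.45, 3.14 and 1.05 FPKM in the young controls. Its quercetin libraries all lay above the middle-aged controls, while young control 2 was the highest of the 9. Oas2 stayed between 0.19 and 0.82 FPKM. Oas1a lay between 0.31 and 1.22 FPKM and did not follow the pattern in the young group, where replicate 1 was the highest. Of its 50-base windows, 57.6% occur identically in Oas1g, so its values are uncertain.

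Isg15 encodes the ubiquitin-like protein that is joined to other proteins during the response, and Usp18 the protease that removes it and damps the receptor. Isg15 (chr4:156199424-156200818) had 2.07, 3.47 and 4.08 FPKM in the quercetin libraries, 1.28, 1.89 and 1.94 FPKM in the middle-aged controls, and 2.90, 3.55 and 2.00 FPKM in the young controls. Its middle-aged control libraries were the 3 lowest of the 9. Usp18 had 1.36, 0.74 and 1.83 FPKM in the quercetin libraries, 0.16, 0.89 and 0.89 FPKM in the middle-aged controls, and 0.57, 1.62 and 0.44 FPKM in the young controls. Usp18 departed from the common order because quercetin 2 was its lowest quercetin library, on an estimated 4.75 fragments in the lowest library and 54.3 in the highest.

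Membrane proteins that hold viruses at the cell surface or in endosomes made up a further pair. Ifitm3, which blocks fusion in endosomes, had 9.08, 14.2 and 14.3 FPKM in the quercetin libraries, 5.67, 10.7 and 6.66 FPKM in the middle-aged controls, and 8.89, 15.0 and 8.08 FPKM in the young controls. Bst2 (tetherin), which holds budding virions at the membrane, had 2.23, 4.96 and 3.99 FPKM in the quercetin libraries, 2.03, 2.46 and 2.94 FPKM in the middle-aged controls, and 3.37, 4.74 and 4.00 FPKM in the young controls. For Bst2 all young libraries lay above all middle-aged controls, and quercetin 1 lay within the range of the middle-aged controls. The guanylate binding proteins, GTPases that attack the membranes of intracellular pathogens, had quercetin 2, quercetin 3 and young control 2 as their highest libraries in each of the 3 genes. Gbp3 had 2.70, 3.70 and 3.71 FPKM in the quercetin libraries, 1.51, 1.69 and 1.83 FPKM in the middle-aged controls, and 2.02, 3.82 and 1.32 FPKM in the young controls. Gbp2 ran from 1.01 to 2.40 FPKM and Gbp7 from 0.80 to 1.98 FPKM.

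**Figure D2:**
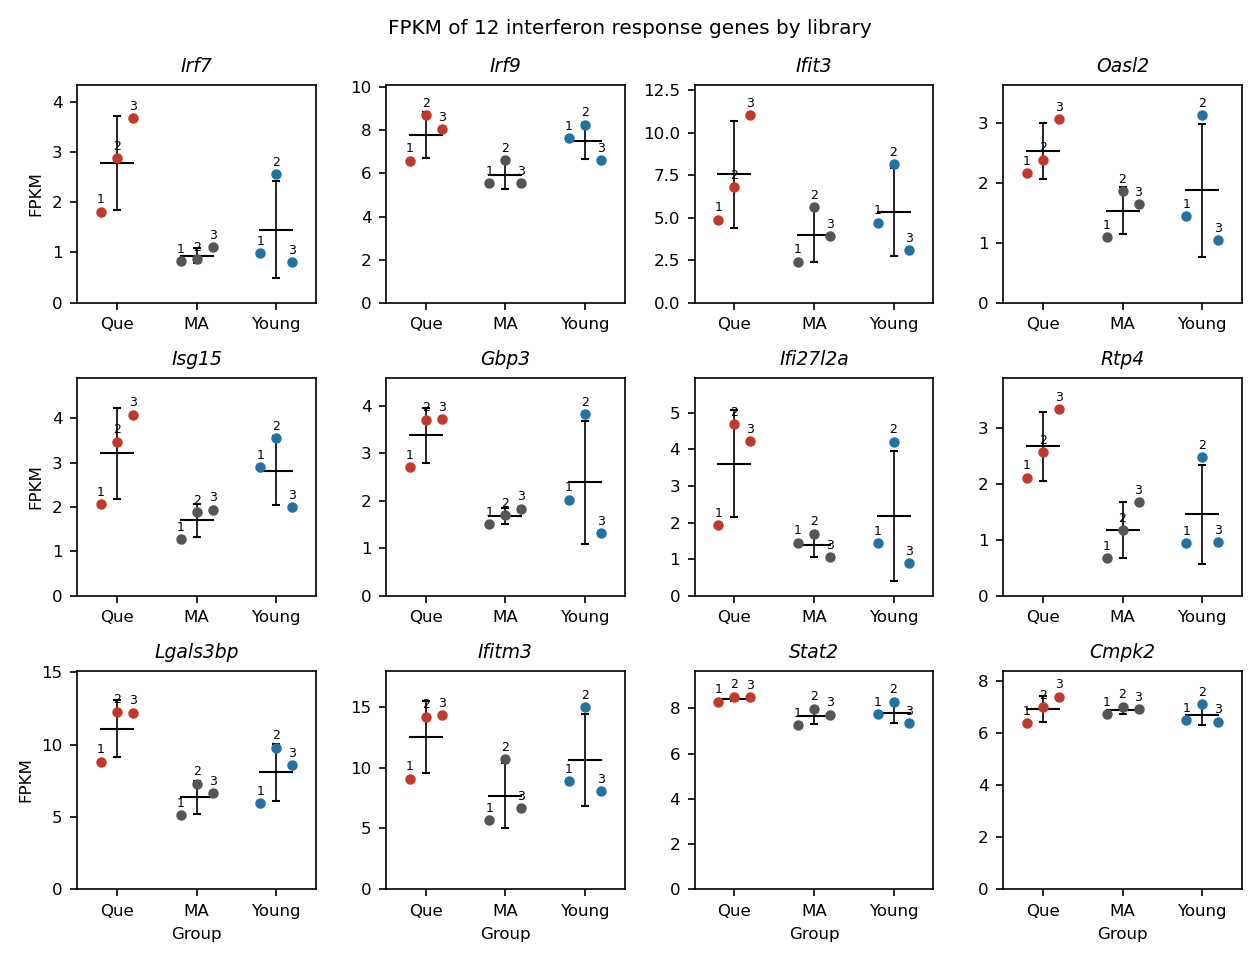
FPKM of 12 of the 33 genes, 1 panel each, in the 3 middle-aged quercetin (Que), 3 middle-aged control (MA) and 3 young control libraries. Points are libraries with their replicate number, and lines are the group mean and its SD. Young control 2 stands apart from the other young libraries in most panels, as for Irf7 with 2.56 FPKM against 0.99 and 0.81 FPKM.

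The pair of Ifi27 genes lies at overlapping positions on chromosome 12, and without stated strandedness reads from the overlap cannot be assigned to either. Ifi27l2a (chr12:103433873-103443680) had 1.94, 4.69 and 4.22 FPKM in the quercetin libraries, 1.45, 1.70 and 1.05 FPKM in the middle-aged controls, and 1.44, 4.21 and 0.89 FPKM in the young controls. It set the 3 high libraries apart most clearly, since the other 6 reached no more than 1.94 FPKM. Rtp4, a chaperone of receptor proteins, had 2.12, 2.57 and 3.35 FPKM in the quercetin libraries, 0.67, 1.18 and 1.68 FPKM in the middle-aged controls, and 0.94, 2.49 and 0.96 FPKM in the young controls. Lgals3bp, a secreted glycoprotein that binds galectins, had 8.82, 12.3 and 12.2 FPKM in the quercetin libraries, 5.10, 7.30 and 6.66 FPKM in the middle-aged controls, and 5.93, 9.79 and 8.58 FPKM in the young controls. In Rtp4 and Lgals3bp, quercetin 1 also exceeded every middle-aged control, which held for 18 of the 33 genes (24.9% of genes tested).

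The remaining genes are given mostly by their ranges. Xaf1, an inducer of apoptosis, ran from 1.61 to 3.98 FPKM, Trim30a, a mouse ubiquitin ligase of the tripartite motif family, from 0.48 to 1.77 FPKM, and Ifi44 from 0.24 to 0.62 FPKM. The ADP-ribosylation genes Parp9 and Parp14 ran from 1.15 to 1.95 and from 0.52 to 1.09 FPKM. Dtx3l, the ubiquitin ligase that pairs with Parp9 and overlaps it on chromosome 16, had 1.97, 1.86 and 2.14 FPKM in the quercetin libraries, 1.97, 1.61 and 1.92 FPKM in the middle-aged controls, and 1.56, 1.66 and 1.5 FPKM in the young controls. All its quercetin libraries lay above all its young libraries, and young control 2 stood close to the other young ones. Cmpk2, a nucleotide kinase, was the flattest of the 33, between 6.37 and 7.38 FPKM. Its neighbour on chromosome 12, Rsad2 (viperin), a radical SAM enzyme that makes a chain-terminating nucleotide, stayed between 0.31 and 0.73 FPKM. The RNA sensors Ifih1 (MDA5) and Dhx58 (LGP2) ran from 0.69 to 1.28 and from 0.44 to 0.87 FPKM. Ifi35 had 1.66, 2.24 and 2.23 FPKM in the quercetin libraries, 1.09, 1.55 and 1.5 FPKM in the middle-aged controls, and 2.07, 2.5 and 2.19 FPKM in the young controls, with the middle-aged controls lowest as for Isg15.

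The first comparison set middle-aged quercetin against middle-aged control. All 26 tested genes had a positive log2 fold change and 0 a negative one, against 53.0% and 47.0% of the genes tested, and their median was 0.41, against 0.01 for all genes. The filter partly fixed this direction for Trim30a, Usp18 and Ifih1. Without the filter, the median over all 33 genes was 0.36. None of the 26 passed limma's moderated test at an adjusted p of 0.05 (Benjamini-Hochberg over 13062 genes), where 22 genes were called in all (0.168%), 18 of them higher (0.138%) and 4 lower (0.0306%). At an unadjusted p under 0.05, 15 of the 26 were higher and 0 lower, against 6.98% and 4.69% of the genes tested. All 3 quercetin libraries lay above all 3 middle-aged controls for 13 of the 26, against 8.97% of genes tested, and none had the opposite separation (7.35%). The 13 were Irf7, Stat2, Oasl2, Isg15, Gbp3, Gbp7, Ifi27, Ifi27l2a, Rtp4, Trim30a, Xaf1, Lgals3bp and Ifi35. Some gaps were small, as for Ifi27 with 34.23 FPKM in quercetin 1 against 34.17 FPKM in middle-aged control 2.

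On the log2(FPKM + 1) scale, which understates the change of low genes, Irf7 had the largest difference, 0.94 ± 0.24 (SE; limma adjusted p = 0.186). Ifi27l2a followed with 0.90 ± 0.34 (limma adjusted p = 0.328), and Rtp4 with 0.77 ± 0.24 (limma adjusted p = 0.257). Lgals3bp had the smallest adjusted p, 0.149 by limma, at 0.72 ± 0.17. Gbp3 differed by 0.70 ± 0.21 and Isg15 by 0.62 ± 0.20, with limma adjusted p = 0.253 and 0.271. Ifit3, with a difference of 0.77 ± 0.33, had the wider spread and a limma adjusted p of 0.396. At the other end stood Cmpk2 at 0.00 ± 0.06, Dtx3l at 0.08 ± 0.08 and Ifih1 at 0.10 ± 0.12. The count at an unadjusted p under 0.05 rested on single libraries. It was 9 without quercetin 2, without quercetin 3 or without middle-aged control 1, 12 without the choroid-rich libraries (quercetin 2 and young control 3), and 20 without quercetin 1, each still with 0 lower. The median stayed between 0.31 and 0.51 when any 1 library was left out.

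**Figure D3:**
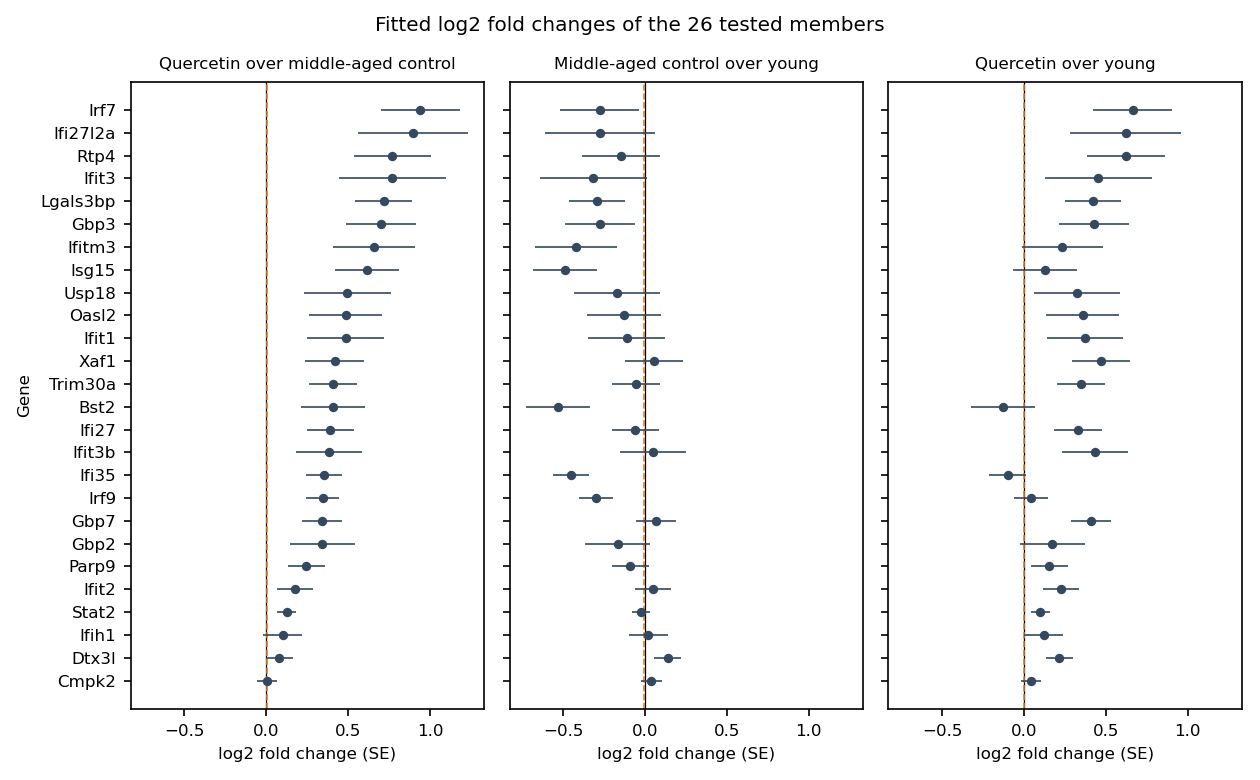
Difference in log2(FPKM + 1) with its SE for each of the 26 tested genes in the 3 comparisons, from 1 limma fit of the 9 libraries, with the median of all genes tested as an orange dashed line. All points of quercetin against middle-aged control are above 0, with Irf7 at 0.94 and Cmpk2 nearest to 0, and none passed the adjusted threshold in any comparison.

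The second comparison set middle-aged control against young control, which is the comparison of age. No tested gene of the 26 passed limma's adjusted threshold, where 30 genes were called in all (0.23%), 11 higher (0.0842%) and 19 lower (0.145%). Of the 26, 19 had a negative log2 fold change (52.1% of genes tested) and 7 a positive one (47.9%), and the median was -0.14. At an unadjusted p under 0.05, 0 were higher (5.59% of genes tested) and 4 were lower (6.63%), namely Irf9, Isg15, Bst2 and Ifi35. Ifi35 differed by -0.45 ± 0.11 (limma adjusted p = 0.127), Bst2 by -0.53 ± 0.20 (0.301), Isg15 by -0.49 ± 0.20 (0.352) and Irf9 by -0.30 ± 0.10 (0.282). The libraries of Isg15, Bst2 and Ifi35 did not overlap between the groups, 3 of 26 genes with the middle-aged controls below, beside 9.41% of genes tested, and 0 with them above (8.81%). The count of 3 was thus near the background. The direction of the median turned with single libraries, to 0.05 without young control 2 and to 0.01 without middle-aged control 1, and it was -0.29 without young control 3. The count of 4 was 1 without young control 2 and 1 without middle-aged control 1.

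The third comparison set middle-aged quercetin against young control and shares its libraries with the other comparisons, so it adds no independent measurement. None of the 26 passed limma's adjusted threshold, where 10 genes were called in all (0.0766%), 5 of them higher and 5 lower (0.0383% each). The log2 fold change was positive for 24 of the 26 (51.6% of genes tested), with a median of 0.33, and negative (48.4%) for Bst2 (-0.13) and Ifi35 (-0.10). At an unadjusted p under 0.05, 8 were higher and 0 lower, against 3.41% and 2.89% of genes tested. The 8 were Irf7, Gbp7, Dtx3l, Ifi27, Rtp4, Trim30a, Xaf1 and Lgals3bp. Irf7 had 0.66 ± 0.24 (limma adjusted p = 0.724) and Gbp7 0.41 ± 0.12 (limma adjusted p = 0.609). Dtx3l was the 1 gene of 26 whose quercetin libraries all exceeded the young libraries (6.45% of genes tested), and 0 had the opposite separation (5.82%). Young controls 1 and 3 were both below every quercetin library for 20 of the 26 (13.1% of genes tested). The count of 8 was 17 without young control 2, 4 without quercetin 2, 1 without quercetin 3, 2 without young control 1 or without young control 3, and 0 without quercetin 2 and young control 3 together.

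Set side by side, the 3 comparisons, which share libraries, differed in shape from gene to gene. For Irf7, the log2 differences were 0.94 for quercetin against middle-aged control, -0.28 for middle-aged control against young control and 0.66 for quercetin against young control. For Isg15 they were 0.62, -0.49 and 0.13, for Bst2 0.41, -0.53 and -0.13, and for Ifi35 0.35, -0.45 and -0.10. The means of Irf7, Isg15, Bst2 and Ifi35 were all lowest in the middle-aged control group, with overlap between quercetin and middle-aged control libraries for Bst2. For Irf7 the higher young mean rested on young control 2, with 2.56 FPKM against 0.99 and 0.81 FPKM in young controls 1 and 3. Its middle-aged controls had 0.83, 0.87 and 1.11 FPKM, so these groups overlapped. The means of Irf7 and Isg15 were highest in the quercetin group, and those of Bst2 and Ifi35 in the young group. Whether the genes differ from each other in this was not tested.

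The receptor and kinase genes upstream in the pathway differed little between libraries. The receptor genes Ifnar1 and Ifnar2 ran from 8.55 to 9.74 and from 8.64 to 10.6 FPKM, and the kinase genes Jak1 and Tyk2 from 43.5 to 47.5 and from 5.23 to 6.33 FPKM. None of the 8 tested genes of the receptor and JAK-STAT list was called by limma in any comparison. At an unadjusted p under 0.05, 1 of the 8 was lower in quercetin than in middle-aged control libraries, beside 4.69% of genes tested. It was Ifngr2, a subunit of the interferon gamma receptor, at -0.16 ± 0.05 (limma adjusted p = 0.282). Ifngr2 was also lower in quercetin than in young control libraries, at -0.14 ± 0.05 (limma adjusted p = 0.732). Of the other interferon regulatory factors, Irf3, which starts interferon beta transcription, had 9.86 to 10.3 FPKM in the quercetin libraries, 7.03 to 10.8 FPKM in the middle-aged controls and 10.2 to 10.7 FPKM in the young controls. Irf1, Irf2, Irf5 and Irf8 were called in no comparison either, with levels from 1.02 to 10.9 FPKM.

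The interferon genes themselves were at the limit of detection. Of 18 type I interferon genes in the table, 5 had values (Ifna1, Ifna9, Ifnab, Ifnk and Ifnz), which summed to 0.03, 0.16 and 0.14 FPKM in the quercetin libraries, 0.11, 0.00 and 0.00 FPKM in the middle-aged controls and 0.00, 0.17 and 0.00 FPKM in the young controls. Ifnz (interferon zeta) had 0.03, 0.07 and 0.14 FPKM in the quercetin libraries and was listed at 0 in the 6 other libraries, while each of the other 4 was above 0 in 1 library. Ifnb1, the interferon beta gene, and Ifng, the interferon gamma gene, had rows without values. None reached the filter, so no difference in these transcripts was tested.

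A further list held 76 other interferon-stimulated genes, of which 72 had values and 40 were tested. None of the 40 was called by limma in any comparison. At an unadjusted p under 0.05, 10 were higher and 0 lower in quercetin than in middle-aged control libraries, beside 6.98% and 4.69% of all genes tested. In middle-aged against young control libraries 4 were higher and 2 lower, beside 5.59% and 6.63%, so these counts were near the background. In quercetin against young control libraries 12 were higher and 0 lower, beside 3.41% and 2.89%. Their median log2 fold changes were 0.12, 0.03 and 0.18 in the same comparisons. Quercetin 2, quercetin 3 and young control 2 were the 3 highest libraries for 9 of the 40 (Herc6, Parp12, Shisa5, Rnf213, Irgm1, Irgm2, Igtp, Iigp1 and Gbp6), beside 2.47% of all genes tested, and 1 of these 3 was the highest for 29, beside 38.0%. The difference between this list and the 33 genes was not tested.

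Among these 40, the 5 with the largest range over the libraries were Tgtp2, Igtp, Ifitm1, Lgals9 and Gbp5. Igtp, an immunity-related GTPase, had 1.85, 3.49 and 3.08 FPKM in the quercetin libraries, 1.49, 1.62 and 1.68 FPKM in the middle-aged controls, and 1.41, 2.51 and 1.04 FPKM in the young controls, with quercetin 2, quercetin 3 and young control 2 as its highest libraries. Gbp5, a guanylate binding protein, had 1.14, 1.94 and 1.51 FPKM in the quercetin libraries, 0.77, 1.04 and 0.94 FPKM in the middle-aged controls, and 0.71, 1.07 and 0.62 FPKM in the young controls. In Gbp5, unlike Igtp, young control 2 stayed below quercetin 1. Tgtp2, another immunity-related GTPase, ran from 0.15 FPKM in young control 3 to 2.14 FPKM in quercetin 2, Ifitm1 from 0.43 FPKM in quercetin 1 to 1.88 FPKM in young control 2, and Lgals9, a galectin, from 1.84 FPKM in young control 3 to 4.27 FPKM in quercetin 3.

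Marker genes of cell types were set beside the scores, since interferon-stimulated genes are expressed by several of them. The 12 microglia markers summed to 204 to 233 FPKM in the quercetin libraries, 196 to 231 FPKM in the middle-aged controls and 184 to 194 FPKM in the young controls, with 194 FPKM in young control 2. The 10 endothelial markers summed to 119 to 135, 118 to 141 and 129 to 144 FPKM in the same order of groups. The 10 choroid plexus markers summed to 68.3, 1123 and 76.8 FPKM in the quercetin libraries, 63.4, 86.8 and 53.1 FPKM in the middle-aged controls, and 49.95, 53.3 and 2824 FPKM in the young controls. The interferon scores of the 2 choroid-rich libraries were 0.31 in quercetin 2 and -0.27 in young control 3. Ependymal markers (5 genes) summed to 17.3, 27.1 and 19.3 FPKM in the quercetin libraries, 15.6, 16.2 and 11.1 FPKM in the middle-aged controls, and 11.8, 16.5 and 21.5 FPKM in the young controls. The quercetin sums thus all lay above the middle-aged control sums, as for many of the interferon response genes. Ccdc153 and Dynlrb2 of this list were higher at an unadjusted p under 0.05, beside 6.98% of genes tested. The libraries of Foxj1, Ccdc153 and Dynlrb2 did not overlap between these groups, while those of Tmem212 and Rarres2 did. The score of the 6 oligodendrocyte markers was -0.18, 0.08 and 0.16 in the quercetin libraries, 0.02, -0.08 and -0.06 in the middle-aged controls, and -0.13, 0.10 and 0.08 in the young controls. This score was thus highest in quercetin 3, young control 2 and quercetin 2, the same 3 libraries as the interferon score. The summed FPKM of these markers did not have that order. Quercetin 3 and quercetin 2 had the highest sums, 2012 and 1900 FPKM. Middle-aged control 1, the lowest library by the interferon score, followed with 1859 FPKM, above young controls 2 and 3 with 1852 FPKM each. T and NK cell markers, of which none reached the filter, summed to 0.15 to 0.73 FPKM in the quercetin libraries, 0.26 to 0.43 FPKM in the middle-aged controls and 0.17 to 0.38 FPKM in the young controls. The part of any cell type in the interferon pattern was not tested.

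**Figure D4:**
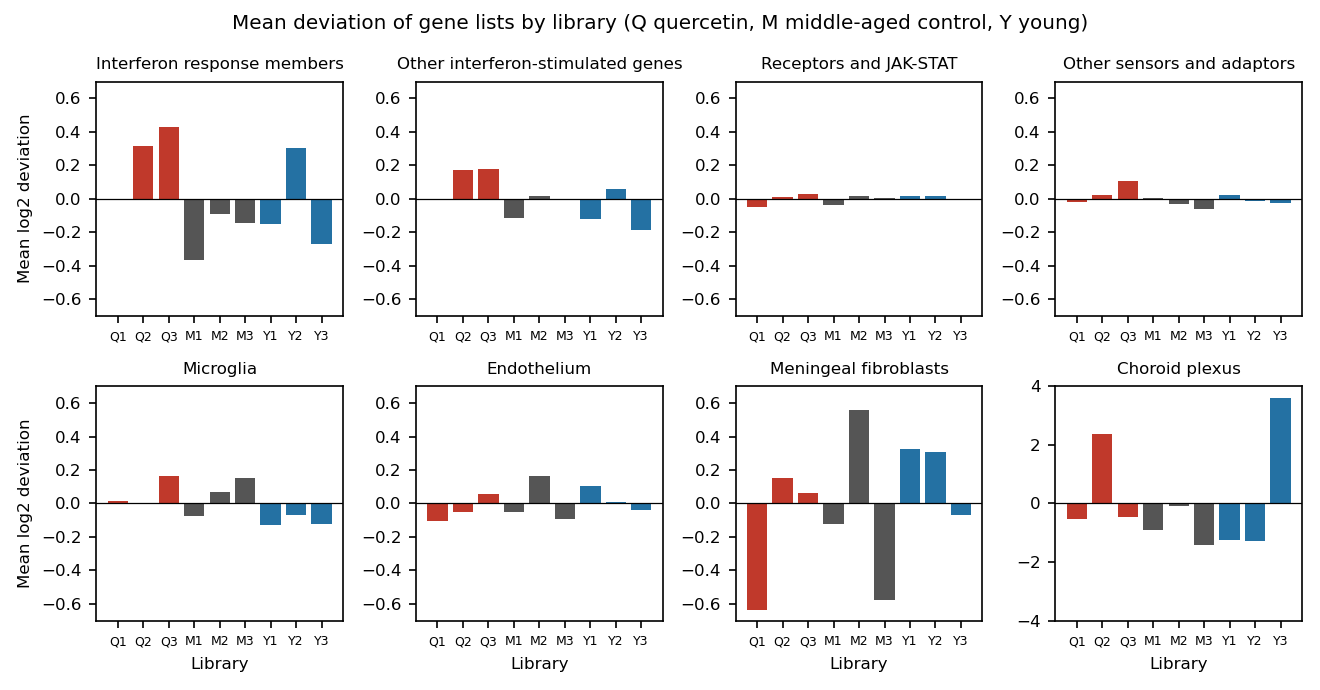
Score of the 33 genes' 26 tested members and of marker and pathway lists in each library (mean of log2(FPKM + 1) minus each gene's mean over the 9 libraries), where Q, M and Y are the middle-aged quercetin, middle-aged control and young control libraries and the choroid plexus panel has a wider axis. The interferon score is high in quercetin 3 (0.43), quercetin 2 (0.31) and young control 2 (0.30), and the choroid plexus score in quercetin 2 (2.36) and young control 3 (3.60).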

How the data were processed

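Hippocampal RNA-seq of 9 libraries was analysed from FPKM values that the authors deposited, with 2 decimals, in 1 table of the whole series. The study's methods give BGISEQ-500 sequencing with HISAT2, Bowtie2 and RESM. TopHat2, Cufflinks and the build GRCm38 stand in the submitters' processing notes. Which tools the FPKM came from is not stated in these sources. Strandedness is not stated either. No count model was fitted, as FPKM are not counts, and the depth was estimated from steps of 1 fragment in low genes with 1 annotated transcript, using GENCODE lengths.

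Genes that reached 1 FPKM or more in 3 or more of the 9 libraries (13062) were kept. Their log2(FPKM + 1) entered limma 3.58.1 under R 4.3.3, with eBayes and its mean-variance trend, group as the only term, all 9 libraries in 1 fit, 3 contrasts and Benjamini-Hochberg adjusted p under 0.05. The fit was also run on simulated data in which genes varied independently, unlike the 33 genes, which moved together between libraries. The 33 genes and all lists were chosen with earlier results of these data known, so no test over a list was run and lists are described by counts and medians. Named were all 33 genes, the upstream genes, and the 5 other interferon-stimulated genes with the largest range. Library values were printed for the 10 of the 33 with the largest range and for others that a count or a departure singled out after their values were seen. Alternatives were 2 scalings, no trend, a pseudocount of 0.1, a filter on the mean (5 FPKM or more) or none, a replicate block, only the 6 libraries compared, each library left out, and the choroid-rich libraries left out together. Promoter windows came from RefSeq (GRCm38.p6) and gene positions from a gene table of the same build. Python 3.11.15 with matplotlib 3.10.9 drew the figures. One gene of the pathway is not reported here.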

Additional observations from a re-analysis of the deposited data

How the results depend on the processing

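No gene of the 26 was called in the main fit, so no alternative could reverse a call among them. None of the 26 tested genes was called in any comparison under any alternative but 1: with a replicate block, Lgals3bp was called for quercetin against middle-aged control (log2 difference 0.72, limma adjusted p = 0.00644). The numbers pair nothing by the labels. Deviations of same-numbered libraries from their group means correlated between -0.20 and 0.12, and not every library correlated best with its own number. Deviations from means of 3 libraries cannot show whether same-numbered libraries shared a batch, so this is not known. For all genes, the calls of quercetin against middle-aged control were 22, and became 1 without the filter, 2 without the trend, 13 with the replicate block, 14 with only the 6 libraries compared, 1 without young control 3 and quercetin 2 together, and 3 to 29 with 1 library left out. For middle-aged control against young control, 30 calls became 17 without the filter, 66 with a mean of at least 5 FPKM, 17 without the trend, 9 without young control 3 and quercetin 2 together, and 12 to 47 with 1 library left out. For quercetin against young control, 10 calls became 4 without the filter, 6 with the replicate block, 4 with only the 6 libraries compared, 4 without young control 3 and quercetin 2 together, and 4 to 7 with 1 library left out. The median log2 difference of the genes of the list was 0.31 to 0.51, -0.29 to 0.05 and 0.17 to 0.47 in the same 3 comparisons with 1 library left out, and 0.55, -0.22 and 0.40 with a pseudocount of 0.1. Depth limits Zbp1, Usp18 and Ifi27l2a most, at an estimated 0.0, 4.75 and 6.90 fragments in the lowest library.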

Other observations

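All 3 quercetin libraries lay above all middle-aged controls for 10 of the 40 tested genes on the list of other interferon-stimulated genes. This held for 8.97% of all genes tested, and 0 of the 40 had the opposite separation (7.35%). Young control 2 was among the 3 highest libraries for Shisa5, Irgm2 and Igtp, but not for Adar, Sp100, Trim30d, Slfn2, Slfn5, Ube2l6 and Gbp5. Slfn2, Slfn5 and Sp100 were picked from these after their values were seen. Slfn2, a regulator of lymphocyte quiescence, had 1.96, 1.80 and 1.94 FPKM in the middle-aged quercetin libraries, 0.80, 0.84 and 1.41 FPKM in the middle-aged controls, and 1.08, 1.24 and 0.92 FPKM in the young controls. Quercetin 1, which was low for most of the 33 genes, was the highest library for Slfn2, and young control 2 lay within the range of the middle-aged controls. Slfn5, of the same family, had 2.15, 2.86 and 2.72 FPKM in the quercetin libraries, 1.13, 1.85 and 1.34 FPKM in the middle-aged controls, and 1.84, 1.75 and 2.42 FPKM in the young controls. For Slfn5, quercetin 1 was the lowest quercetin library and lay below young control 3. The log2 differences of quercetin against middle-aged control were 0.54 ± 0.12 for Slfn2 and 0.56 ± 0.13 for Slfn5 (SE; limma adjusted p = 0.124 and 0.133), so neither passed the adjusted threshold. Sp100, a nuclear body protein with many near-identical copies in the mouse genome and thus uncertain values, had 2.56, 3.10 and 2.99 FPKM in the quercetin libraries, 1.54, 2.14 and 2.18 FPKM in the middle-aged controls, and 1.34, 1.59 and 1.54 FPKM in the young controls, with a log2 difference of 0.64 ± 0.10 between quercetin and young control libraries (limma adjusted p = 0.0809).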
